A study of Mus musculus with 9 samples.

Results

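Chromatin binding of the NF-κB subunits RelA and RelB was examined at the genes for prostaglandin and nitric oxide synthesis in NfkB2-/- MEFs, which are immortalized mouse embryonic fibroblasts without the p100 precursor. The 6 member genes, *Pla2g4a*, *Ptgs1*, *Ptgs2*, *Ptges*, *Nos2* and *Gch1*, were picked by name from 37273 annotated genes of the mm9 mouse genome. A peak belonged to a member when its centre lay within 50 kb of the start site of that gene. This rule took 22 of the 25055 peaks in 8 lists, one list per ChIP-seq library. Libraries were made with an antibody against RelA (p65) or against RelB, from cells treated with 10 ng/ml TNF for 0 h or 6 h, with 2 libraries for each antibody and time. All groups carry the same deletion, and no wild-type library was analysed here. The input against which peaks were called was chromatin of the same genotype, for which the series holds a single sample. The labels do not say whether replicates were separate cultures, so p-values measure only the spread between these libraries. Peak lists hold neither transcript nor protein levels, so cell type and genotype could not be checked against markers.

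Prostaglandins are made from arachidonic acid. Cytosolic phospholipase A2 (*Pla2g4a*) frees the acid from membranes, the cyclooxygenases (*Ptgs1* and *Ptgs2*) convert it to a common intermediate, and microsomal prostaglandin E synthase (*Ptges*) turns the intermediate into prostaglandin E. Nitric oxide is made from arginine by nitric oxide synthases, of which *Nos2* encodes the inducible form, with tetrahydrobiopterin as a cofactor whose first synthetic step is catalysed by GTP cyclohydrolase (*Gch1*). In fibroblasts and macrophages *Ptgs2*, *Ptges*, *Nos2* and *Gch1* are known as genes induced by inflammatory cytokines, whereas *Ptgs1* is mostly expressed constitutively.

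At 6 h of TNF the strongest binding near these genes lay far upstream of *Nos2*, where a pair of intergenic sites was called in all 4 libraries at 14.9 to 19.4 times the input on average. A site upstream of *Ptgs1* was also called in all 4 libraries, at a mean of 9.00 times the input. These folds are of the strongest window of each peak over scaled input, not of the whole site, and were averaged on the log2 scale. *Gch1* had a site just inside the gene that was called in both RelA libraries and in neither RelB library. *Ptgs2* and *Ptges* had only sites called in a single library, and *Pla2g4a* had none. No library at 0 h had a peak near any of the 6 genes.

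Merging the peaks of the 4 libraries at 6 h wherever they shared 1 bp or more gave 11 sites near the members out of 14781 in the genome. Of these 11 sites, 3 were called in all 4 libraries, 1 in 2 libraries and 7 in 1 library. Over all 14781 sites, 12.6% were called in all 4 libraries and 67.9% in 1 library. The site near *Ptgs2* and the one inside *Gch1* were within 1 kb of the start site, and 7 of the 11 sites were intergenic.

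**Figure D1:**
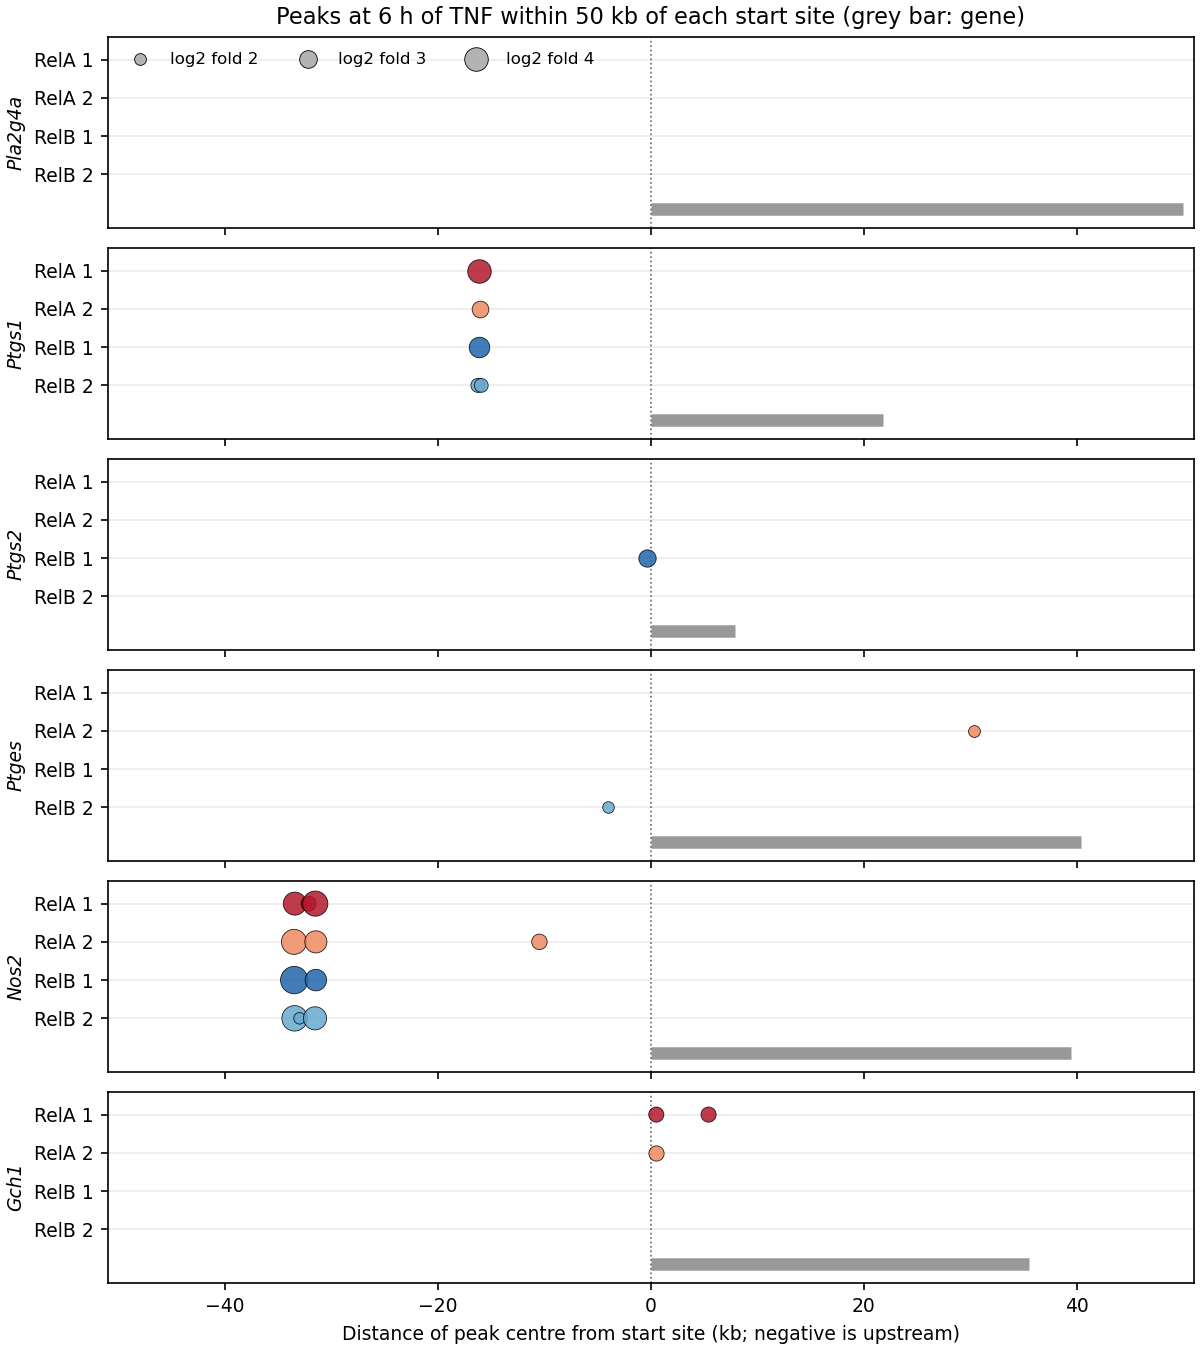
Positions of the 22 peaks called at 6 h of TNF within 50 kb of each start site, with one row per library and one panel per gene. The x axis is the distance of the peak centre from the start site in kb along the direction of transcription, the area of a circle grows with the log2 fold over input, and the grey bar is the gene, which for *Pla2g4a* runs past the edge. All 4 libraries line up upstream of *Nos2* and *Ptgs1*, only the RelA rows hold circles at *Gch1*, and the *Pla2g4a* panel is empty.

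The sequence around the centre of the sites is shown for the 3 sites called in all 4 libraries and for the single peak at the *Ptgs2* promoter. The last was chosen after the values had been seen. Capitals mark matches to the κB consensus, the 10-base element that NF-κB dimers recognise, within 100 bp of the centre on either strand. All sequences are the plus strand of mm9.
*Nos2*, chr11:78700708-78700868: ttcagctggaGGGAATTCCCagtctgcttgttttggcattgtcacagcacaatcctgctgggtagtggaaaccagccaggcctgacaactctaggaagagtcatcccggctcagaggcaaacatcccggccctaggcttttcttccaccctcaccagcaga
*Nos2*, chr11:78702730-78702850: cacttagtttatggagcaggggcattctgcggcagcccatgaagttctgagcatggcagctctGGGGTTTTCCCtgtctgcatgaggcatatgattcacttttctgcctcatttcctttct
*Ptgs1*, chr2:36069675-36069841: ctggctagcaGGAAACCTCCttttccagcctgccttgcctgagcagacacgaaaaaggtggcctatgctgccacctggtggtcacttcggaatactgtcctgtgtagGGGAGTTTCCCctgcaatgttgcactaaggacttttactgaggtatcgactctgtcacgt
*Ptgs2*, chr1:151946803-151946923: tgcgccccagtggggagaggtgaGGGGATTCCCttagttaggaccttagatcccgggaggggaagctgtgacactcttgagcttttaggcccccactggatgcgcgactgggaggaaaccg

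A κB match was found within 100 bp of the centre at 7 of the 11 sites. All 3 sites called in all 4 libraries held one, as did 3 of the 7 sites called in a single library, 6 of which had under 15 ChIP reads, and the *Gch1* site called for RelA. For comparison, 40.8% of the 14781 sites at 6 h held a match in a window of the same length. The share was 77.6% of the 1860 sites called in all 4 libraries and 28.7% of the 10042 sites called in 1 library. Windows placed 1000 bp beyond the centre held a match in 8.82% of cases, and windows centred on the start sites of 22367 coding genes in 15.4%. The capitals run to 11 bases in the second *Nos2* sequence and in the second *Ptgs1* match because matches offset by 1 base overlap there. The match at the *Nos2* site farther from the gene reads the same on both strands.

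*Pla2g4a* spans bases 151676748 to 151808420 of chromosome 1 in mm9 and is read from the minus strand. None of the 8 libraries had a peak assigned to it. The nearest peak at 6 h was in RelA replicate 2 only, from 151702029 to 151702296, which is intronic and 106258 bp inside the gene. It held 15 ChIP reads beside 6 input reads (log2 fold over input 2.01, false discovery rate (FDR) of the peak call 0.0314). *Pla2g4a* was thus the only member without a site under the 50 kb rule. Having none was common, as 39.6% of all genes had a peak at 6 h within that distance.

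*Ptgs1* encodes the constitutive cyclooxygenase and occupies chromosome 2, plus strand, 36085946 to 36107792. Its single site, from 36069533 to 36070030, was intergenic and 16165 bp upstream of the start site. RelA replicates 1 and 2 reached a log2 fold over input of 3.99 and 2.83, taken from the strongest window of the peak. RelB replicates 1 and 2 reached 3.48 and 2.38, and replicate 2 had a pair of peaks in the site. Replicate 1 was thus the higher library for both antibodies, by 1.16 for RelA and 1.10 for RelB on the log2 scale, and the ranges of the antibodies overlapped. ChIP reads in the site were 33 and 16 for RelA and 25 and 28 for RelB, the last summed over both peaks, beside 11, 5, 8 and 11 input reads. Among the 1860 sites called in all 4 libraries it ranked 959 by mean log2 fold, which was 3.17, so it was a site of middling strength. The central κB match was 6 bp from the mean centre of the peaks and a further match, GGAAACCTCC, was 92 bp away.

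*Ptgs2* encodes the inducible cyclooxygenase and occupies chromosome 1, plus strand, 151947254 to 151955140. The only peak within 50 kb was at its promoter and was called in RelB replicate 1 alone, from 151946849 to 151946877, with its centre 391 bp upstream of the start site. That position is also in an exon of 7530420F21Rik, a long noncoding RNA gene on the opposite strand. The peak held 13 ChIP reads (exact Poisson 95% interval 6.92 to 22.2) beside 6 input reads. Its log2 fold over input was 2.94, with FDR 0.0266. It ranked 4048 among the 5192 peaks in the list of that library. Its log2 fold equalled the median over all peaks of the library, 2.94, so by fold it was a middling peak. Forward reads numbered 9 and reverse reads 4. The κB match GGGGATTCCC lay 32 bp from the centre, just outside the 29 bp of the peak itself. RelB replicate 2 and both RelA libraries had no peak there. The lists hold only called peaks, the smallest of which had 10 or 11 ChIP reads in the libraries at 6 h, so weaker binding in the other libraries could not be seen.

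*Ptges*, the terminal synthase, occupies chromosome 2, minus strand, 30744991 to 30785383. Its annotated transcripts start at 5 positions, 4 of which are 26564 to 32394 bp downstream of the outermost start used here. RelB replicate 2 had an intergenic peak 4001 bp upstream of that start, from 30789370 to 30789398, which held 11 ChIP reads and 4 input reads (log2 fold 1.97, FDR 0.0859). A κB match, GGGATTTTCC, lay 44 bp from its centre. RelA replicate 2 had an intronic peak from 30755027 to 30755078, which held 14 ChIP reads and 7 input reads (log2 fold 2.01, FDR 0.0314). This intronic peak was 30330 bp downstream of the outermost start and 2064 bp from the nearest transcript start. Neither peak overlapped one in another library.
When any transcript start was allowed, *Ptges* gained 3 peaks in introns of the neighbouring gene *Prrx2* and *Pla2g4a* gained its intronic peak, still with no site called in both libraries of an antibody.

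*Nos2*, the inducible nitric oxide synthase, occupies chromosome 11, plus strand, 78734289 to 78773756. It had 11 of the 22 peaks, in 5 sites. A number of sites this high or higher was found for 2.36% of all genes, and 1.19% of genes had at least 2 sites called in all 4 libraries. All of the *Nos2* sites but the one 10466 bp upstream were clustered, with centres between 33481 and 31499 bp upstream. The number of sites therefore rests on the rule of merging at 1 bp of overlap. Both sites called in all 4 libraries were intergenic, with *Nos2* as the nearest coding start.

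The farther site, from 78700534 to 78701146, was centred 33481 bp upstream of the start site. RelA replicates 1 and 2 reached a log2 fold over input of 3.91 and 4.25, and RelB replicates 1 and 2 reached 4.64 and 4.32. Both RelB values were above both RelA values on this scale. After the median of each library over the 1860 sites called in all 4 libraries was subtracted, the values were 0.70 and 1.08 for RelA against 1.40 and 1.03 for RelB, and the antibodies overlapped. The site held 32 and 30 ChIP reads for RelA and 40 and 30 for RelB, against 4 or 5 input reads in each library. By mean log2 fold, 4.28, it ranked 93 among the 1860 sites, in the top 5.0%. In the list of RelB replicate 1 its peak ranked 40 of 5192. The κB match lay 86 bp from the mean centre, and a further match was in the site 226 bp from the centre.

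The nearer site, from 78702681 to 78702896, was centred 31499 bp upstream. Here RelA replicates 1 and 2 reached 4.26 and 3.75 on the log2 scale, and RelB replicates 1 and 2 reached 3.65 and 3.92, so the antibodies overlapped. It held the most reads of any site near the members, namely 53 and 39 ChIP reads with the RelA antibody, 29 and 50 with the RelB antibody, and 6 to 13 input reads. Its mean log2 fold of 3.90 ranked 262 among the 1860 sites. The overlapping κB matches, GGGGTTTTCC and GGGTTTTCCC, lay 8 bp from the centre of the peaks.

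The other 3 sites of *Nos2* were weaker than both of those and called in a single library each. RelB replicate 2 had a peak 32998 bp upstream with 11 ChIP reads at a log2 fold of 1.97, and RelA replicate 1 had one 32144 bp upstream with 11 ChIP reads at 2.57. RelA replicate 2 had a peak 10466 bp upstream with 19 ChIP reads at 2.62, which held the κB match GGAAGGTCCC. None of the peaks was nearer to the *Nos2* start site than this one, so the promoter itself had no called peak.

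*Gch1*, the gene for the first enzyme of tetrahydrobiopterin synthesis, occupies chromosome 14, minus strand, 47773570 to 47809088. Its main site, from 47808383 to 47808814, was in an intron, centred 502 bp downstream of the start site. RelA replicates 1 and 2 reached log2 folds of 2.56 and 2.58, from 20 and 24 ChIP reads beside 8 input reads each. These values were nearly equal between replicates. They were below the median of the 1860 sites called in all 4 libraries, which was 3.21 and 3.17 in these libraries. Over all peaks of the same lists the medians were 2.57 and 2.62, and the site's peaks ranked 2122 of 7052 and 1665 of 5688. The FDR was 0.00101 and 4.32e-04. A κB match was 30 bp from the centre. No peak of either RelB library was assigned to *Gch1*. It was the only member with a site called in both RelA libraries and in no RelB library, a pattern found near 2.34% of genes and at 2.65% of the 14781 sites. None of the members had the opposite pattern, found near 2.53% of genes and at 3.9% of sites. A RelB signal under the calling threshold would not be in the lists, and the strength of RelB at this site was therefore not compared. RelA replicate 1 had a further intronic peak 5424 bp downstream, with 11 ChIP reads and 2 input reads at a log2 fold of 2.57, ranked 7041 of 7052 in its list.

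**Figure D2:**
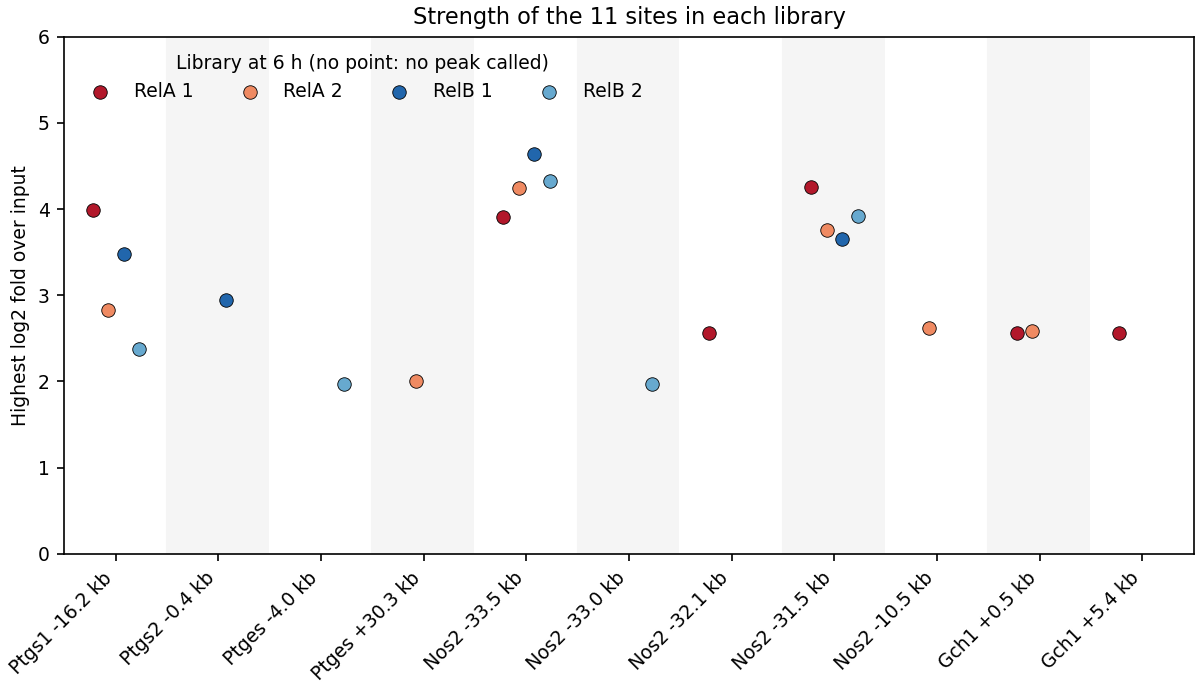
Highest log2 fold over input (y axis) at each of the 11 sites near the member genes (x axis, named by gene and distance from the start site), with one point per library at 6 h and no point where no peak was called. The farther and the nearer *Nos2* site have 4 points each between 3.65 and 4.64, *Ptgs1* spreads from 2.38 to 3.99, and the points of sites called in a single library lie between 1.97 and 2.94.

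Near the threshold of the rule, no peak lay between 33522 bp and 50 kb from a start site. Just outside, *Ptges* had peaks 53827 bp downstream in RelA replicate 2 and 58351 and 58408 bp downstream in RelA replicate 2 and RelB replicate 1, at log2 folds of 1.78 to 2.28. Farther out, *Nos2* had peaks about 72 kb upstream in RelA replicate 1, RelA replicate 2 and RelB replicate 2, at log2 folds of 4.17, 2.28 and 2.19. Peaks 97892 bp downstream of *Ptgs2* in RelA replicate 1 and 97084 bp upstream of *Ptges* in RelB replicate 2 were the remaining ones within 100 kb.

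Whether TNF changed binding near these genes was asked by counting peaks per library. The RelA libraries had 6 and 6 peaks near the members at 6 h, the RelB libraries 4 and 6, and all 4 libraries at 0 h had none. The groups did not overlap, and the mean difference was 5.50 peaks (two-sided exact permutation test, p = 0.0286). This is the lowest p possible with 4 libraries against 4. The test pooled the antibodies, so RelA and RelB libraries counted as replicates of a time. The lists at 0 h were short, with 14 to 194 peaks against 5192 to 7052 at 6 h. Peaks near the members were 0.0893% of all peaks at 6 h, and the same percentage of the 425 peaks at 0 h would be 0.380 peaks. The absence of peaks at 0 h near these genes can therefore not be set apart from the short lists of the whole genome, in which 1.2% of genes had a peak at 0 h. The nearest peaks at 0 h were 706930 bp from *Ptges* and 16277706 bp from *Nos2*, with the other members between. Within the genome, 10.9% of genes had a peak of every library at 6 h and of none at 0 h within 50 kb. Among the members these were *Ptgs1* and *Nos2*.

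By the weaker criterion of any peak at 6 h, 5 of the 6 members were called, beside 39.6% of all genes and 43.5% of coding genes. A site called in all 4 libraries was found for 2 of 6, beside 8.89% of all genes and 9.83% of coding genes. *Ptgs1*, *Nos2* and *Gch1* had a site called in both RelA libraries, beside 12.6% of all genes and 14.1% of coding genes. *Ptgs1* and *Nos2* had one called in both RelB libraries, beside 13.6% and 15%. With 6 genes chosen by name these shares are a description.

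**Figure D3:**
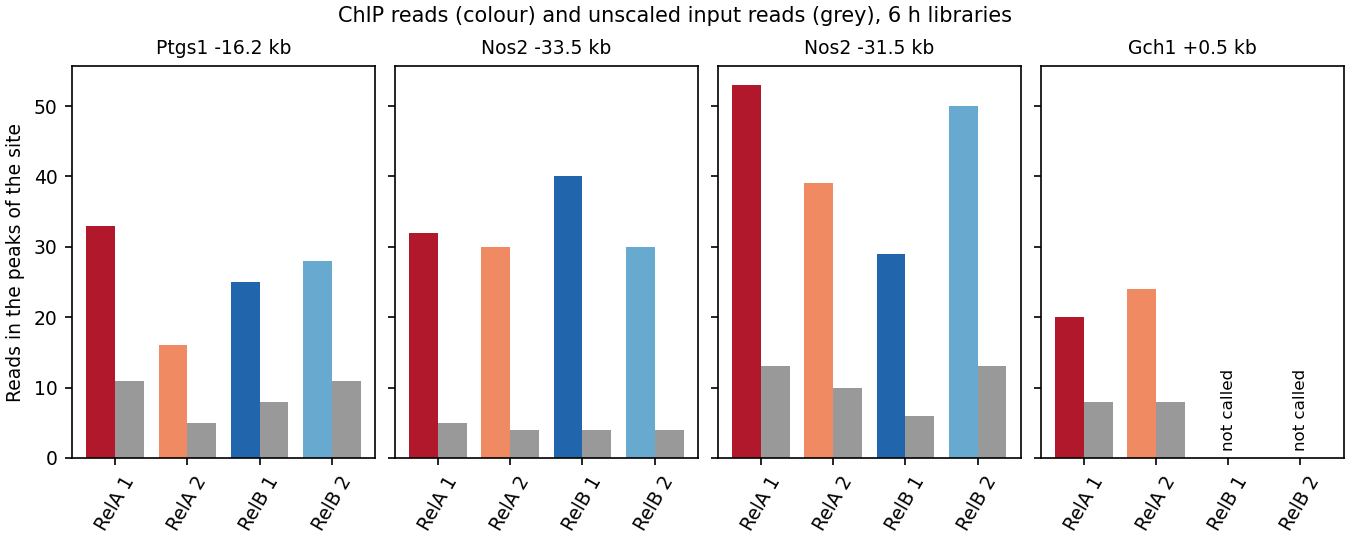
ChIP reads (coloured bars) and input reads before scaling (grey bars) in the peaks of the 4 sites called in at least 2 libraries, with one pair of bars per library at 6 h and reads on the y axis. ChIP reads run from 16 to 53 and exceed input reads in every pair, and the RelB libraries have no peak at *Gch1*.

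RelA and RelB were compared in strength at the sites called in all 4 libraries, with limma fitted on all 1860 such sites after centring each library on its median. At the *Ptgs1* site RelA minus RelB was 0.56 on the centred log2 scale (95% interval -0.39 to 1.51, limma, adjusted p = 0.549). The difference was -0.32 at the farther *Nos2* site (-0.95 to 0.31, limma, adjusted p = 0.608) and 0.30 at the nearer one (-0.32 to 0.93, limma, adjusted p = 0.627). In this fit none of the 3 sites passed the threshold or had an unadjusted p under 0.05 in limma. Of the 1860 sites 0.591% were called, 0.43% with RelA higher and 0.161% with RelB higher. The intervals leave room for differences of close to 1 log2 unit or more at each site, so equal binding was not shown either. At *Ptgs1* the difference turned to -0.18 when log2 ChIP reads were fitted in place of the fold, and to -0.072 without RelB replicate 2. The *Ptgs1* difference was 1.15 without RelA replicate 2, 1.11 without RelB replicate 1 and 0.036 without RelA replicate 1. Leaving out 1 library moved the difference at the farther *Nos2* site between -0.57 without RelB replicate 2 and -0.096 without RelA replicate 1. At the nearer site it moved between 0.11 without RelA replicate 1 and 0.56 without RelA replicate 2.
Before centring, the SD between replicates at the *Ptgs1* site was 0.82 for RelA and 0.78 for RelB (n = 2 each). Both were larger than the uncentred difference there, 0.48. At the farther *Nos2* site the SD was 0.24 for RelA and 0.23 for RelB, and at the nearer one 0.36 and 0.19.

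**Figure D4:**
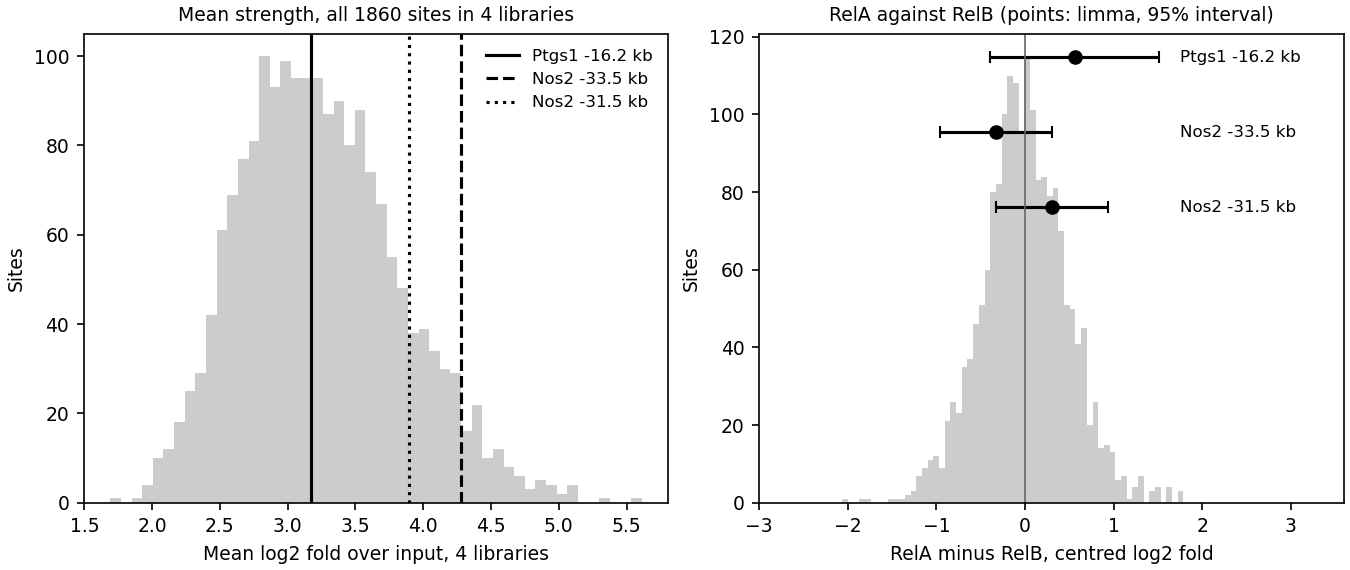
Left, distribution of the mean log2 fold over input (x axis) of the 1860 sites called in all 4 libraries (y axis, number of sites), with lines at the *Ptgs1* site and both *Nos2* sites. Right, distribution of RelA minus RelB in centred log2 fold over the same sites, with points and bars for the limma estimate and 95% interval of the 3 member sites at arbitrary heights, and all 3 intervals include 0.

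The sites whose log2 folds over the 4 libraries were most like those of the farther *Nos2* site were nearest to the coding start sites of *Flrt2*, *Il34* and *Plcb4*, at Euclidean distances of 0.244, 0.321 and 0.358. Of these, the *Il34* site was 11213 bp from its start site and the others over 100 kb away. This likeness was taken over 4 libraries at 6 h.

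Other genes of the same pathways were taken from a list of 66, all found in the annotation, one of them under an older symbol. Of these, 32 (48.5%) had a peak at 6 h within 50 kb, beside 39.6% of all genes and 43.5% of coding genes. A site called in all 4 libraries was near 8 (12.1%), beside 8.89% of all genes and 9.83% of coding genes. A site called in both RelA libraries was near 14 of the 66 (21.2%, beside 12.6% of all genes and 14.1% of coding genes). One called in both RelB libraries was near 10 (15.2%, beside 13.6% of all genes and 15% of coding genes). By class, sites called in all 4 libraries were near 2 of 9 prostanoid synthases, 2 of 6 genes of arginine supply and use, and 1 of 9 prostanoid receptors. They were also near 1 of 5 genes of prostaglandin turnover and transport, 1 of 6 lipoxygenase branch genes and 1 of 6 nitric oxide synthases and regulators. None were near the 16 phospholipases, the 6 tetrahydrobiopterin genes or the 3 genes of the nitric oxide receptor.

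The strongest of these sites was 587 bp from the start site of *Ptgir*, the prostacyclin receptor, on chromosome 7 from 17491020 to 17491484. There RelA replicates reached 3.58 and 3.70 on the log2 scale and RelB replicates 4.17 and 4.46. Both RelB libraries were thus above both RelA libraries, also after each library's median was subtracted. After that subtraction the opposite order, both RelA above both RelB libraries, was found at *Slco2a1*, *Nosip* and *Ptges2*. It was also found narrowly at *Ass1* (lower RelA value 0.36, higher RelB value 0.35). At *Slc7a2*, *Ltc4s* and *Akr1b3* the antibodies overlapped. How often either order occurs among all sites called in all 4 libraries was not counted. These orders are therefore only a description of 2 libraries per antibody. A site 23876 bp from *Ass1*, which encodes the enzyme that rebuilds arginine from citrulline, reached 4.05 and 3.53 with RelA, against 3.29 and 3.65 with RelB. *Slco2a1*, the prostaglandin transporter, had a site 21906 bp away that reached 3.30 and 3.01 with RelA, against 2.72 and 2.90 with RelB. *Slc7a2*, a cationic amino acid transporter that brings arginine into the cell, had a site 4112 bp away that reached 2.98 and 2.91 with RelA, against 3.12 and 2.55 with RelB. The sites of *Ltc4s*, *Akr1b3*, *Nosip* and *Ptges2* were 13584 to 44595 bp from the start sites, at mean log2 folds of 2.28 to 2.90. Sites at these distances can lie as near to other genes, so they were not assigned to one gene alone.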

How the data were processed

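Peak lists of 8 ChIP-seq libraries were analysed. The authors removed adapters (cutadapt) and low-quality bases, mapped reads uniquely to mm9 (Bowtie) and ran cisGenome 2.0 on each library with input as the control. The authors deposited for each peak a log2 fold (its strongest window relative to scaled input), an FDR (a q-value) of the call, and counts of ChIP and input reads within it. Counts are not normalized and total reads are not given in the lists, so depth is unknown and intervals of reads cover counting error only. Peaks were assigned to GENCODE start sites of mm9, one per gene, within 50 kb. Mitochondrial genes were left out. Sequence is given for 4 of the 11 sites. Overlapping peaks were merged into sites, with the highest log2 fold per library.

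Replicate numbers come from the library titles. Limma used no block, and adjusted p under 0.05 was the threshold. The members and lists were chosen with earlier results of these data known. All sites of the 6 members were named, as were pathway genes with a site in all 4 libraries. Merging, distances, motif search and limma were tested on simulated data. Alternatives covered FDR under 0.01, log2 fold of at least 2, distance limits of 10 and 100 kb, chaining of centres within 500 bp, transcript starts, normalization, replicates left out and motif windows. R 4.3.3 with limma 3.58.1 and Python 3.11.15 were used, with pysam 0.24.0 to read sequence, pandas 2.3.3 for tables and scipy 1.17.1 for exact tests.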

Additional observations from a re-analysis of the deposited data

How the results depend on the processing

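*Ptgs1* and *Nos2* had a site in all libraries at each peak threshold, overlap rule and start site tried and without any one library at 6 h, but not within 10 kb, where 0 of the 6 genes had one. Of the pathway list, 5 genes had such a site with FDR under 0.01, 2 within 10 kb, 14 within 100 kb, and 8 to 12 without one library (12 without RelB replicate 1). The difference in peak number, 6 h minus 0 h, stayed at p = 0.0286 (exact permutation test) under the other thresholds and distances. The difference lay between 1.25 within 10 kb and 7.50 within 100 kb. This p is the lowest possible, and with lists at 0 h as short as these it says nothing particular to the 6 genes. Without one library the difference was 5.33 to 6.00 peaks and the smallest p allowed was 0.0571. With the replicate number as a block it was 5.50 with p = 0.125 (exact sign flips), the smallest that 4 pairs allow. The correlation of replicate deviations between RelA and RelB was -0.00256 across sites. With 2 numbers this does not show whether same-numbered libraries share a culture or batch, and the numbers were not treated as pairs. None of the 3 member sites was called by limma in any fit (adjusted p from 0.158 to 0.987). The *Ptgs1* difference turned to -0.18 with log2 ChIP reads and to -0.072 without RelB replicate 2, and without one library it reached 1.15. In the genome, limma called 11 sites, against 23 with ChIP reads, 85 with the replicate block, 30 with FDR under 0.01, 0 with chained centres and 0 to 31 without one library (0 without RelA replicate 1 or RelB replicate 2, 31 without RelA replicate 2). The cause was not tested. κB matches numbered 5 to 7 of 11 sites across windows and forms.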
